A study of Mus musculus with 14 samples.

Results

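Cholesterol is built from acetyl-CoA through the mevalonate pathway, which yields isoprenoid units, and through squalene, which is closed to lanosterol and trimmed to cholesterol. Fatty acids are built from the same acetyl-CoA by acetyl-CoA carboxylase and fatty acid synthase, and are then lengthened and desaturated. In mammalian cells both routes are driven largely by the SREBP transcription factors, which SCAP carries out of the endoplasmic reticulum when membrane sterol is low and which the INSIG proteins hold back when it is high. Dividing cells need both products for new membrane, and wild-type p53 is known from other cells to hold down transcription of the mevalonate pathway.

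The genes described here are a list of 31 members of these routes among the 30503 genes of the count table, found by their symbols. The list was chosen with earlier results of these data known. By role they are 7 genes of the mevalonate part, 11 genes of the squalene and sterol part, 5 genes of SREBP control, 2 genes of sterol transport and efflux, and 6 genes of the fatty acid part. All 31 passed the filter on low counts and were among the 17358 genes tested. Some other genes of the routes are not analysed here.

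Bulk RNA-seq was performed on 14 cultures, each grown from 1 tdTomato+ cell of mouse femur bone marrow. All donor mice carried Fgfr3-creER, a transgene that gives tamoxifen-inducible Cre under Fgfr3 control, and the R26R(tdTomato/+) reporter, and all were pulsed with tamoxifen at P21, so that Cre and tamoxifen are shared by every group. The 5 Fgfr3-WT (P23) clones (hereafter WT) kept intact Trp53 and were isolated on postnatal day 23. The Fgfr3-p53 cKO clones also carried the floxed allele Trp53fl/fl and were isolated on day 28 (P28, 5 clones) or at 4 months of age (P4M, 4 clones). The WT and P28 clones are listed at passage 8 and the P4M clones at passage 6 to 8. The methods of the study give passage 6 to 8 for cKO clones of both ages, so the passage of the P28 clones is not certain. Each library is thus a culture that had already survived many passages, not fresh endosteal cells, and p-values measure the spread between clones. The labels do not give the number of mice, and the legends of the study count these groups as clones in one place and as mice in another. All WT libraries share 1 submission number and all cKO libraries another, so genotype and submission cannot be told apart. Replicates are numbered in the order of the deposit.

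Total counts were 25688946 to 38958693 in WT, 37606033 to 48648618 in P28 and 43757832 to 52857424 in P4M libraries. Trp53 was 49.9 to 68.2 CPM (counts scaled to the TMM-adjusted library total) in WT, 2.18 to 2.84 CPM in P28 and 1.72 to 2.37 CPM in P4M clones. Of 9 skeletal stromal markers, Vim, Pdgfrb and Twist1 were present in every clone, whereas Col1a2, a chain of type I collagen, was at most 0.23 TPM in WT replicates 1 to 4 and 1213 to 9089 TPM in the other clones. The others varied widely between clones. Prrx1 was 1.58 to 288.3 TPM, Col3a1 0.03 to 516.2 TPM, Thy1 0 to 38.55 TPM, Eng 0.88 to 49.7 TPM and Pdgfra 2.6 to 28.4 TPM. Of 10 adipocyte markers, 4 defining genes (Adipoq, Plin1, Cidec, Cfd) were at 0.20 TPM or less in every clone, whereas Fabp4 reached 417.5 TPM in P28 replicate 5, Plin4 172.5 TPM in WT replicate 5 and Pparg 46.5 TPM in P28 replicate 5; the summed level of the list was 27.9 to 299.7 TPM in WT, 19.6 to 482.9 TPM in P28 and 13.4 to 244.8 TPM in P4M. Of its 5 genes tested, none was called in P28 against WT and 1, Lpl, was lower in P4M. The summed level of 10 blood markers was 22.9 to 164.6 TPM in WT, 5.40 to 34.5 TPM in P28 and 6.86 to 11.9 TPM in P4M clones, with Ptprc at 0.07 TPM or less in every clone, and that of 6 endothelial markers was 3.26 TPM or less. Of the blood markers, Lyz2 was 16.8 to 98.6 TPM in WT, 2.33 to 30.4 TPM in P28 and 1.80 to 9.65 TPM in P4M clones and Cd68 5.46 to 66.00, 1.67 to 3.77 and 2.12 to 9.13 TPM, and both were lower in both cKO groups. The other blood marker tested, Csf1r, was at 0.54 TPM or less in every clone and was higher in P28. Kdr, the only endothelial marker tested, was at 3.12 TPM or less and was higher in both cKO groups. The part of these markers in the results below was not tested. All 8 proliferation markers were higher in P28 and in P4M clones than in WT (summed 86.4 to 179.6 TPM in WT, 261.1 to 817.9 TPM in P28 and 385.7 to 697.0 TPM in P4M), and none was called between P4M and P28. The part of proliferation in the differences between cKO and WT below was not tested. In bulk RNA, fewer cells that express a gene and less of its RNA per cell cannot be told apart.

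Promoter windows of 120 bases are shown for 3 members, because they hold letters bound by factors known for this pathway. They come from the 6 members with the largest log2 fold change in P28 against WT whose promoter held CCAAT, and are the ones that could be placed upstream of the RefSeq start and outside annotated exons. SREBP proteins bind the sterol regulatory element, searched here as TCACNCCAC, usually beside NF-Y, which binds CCAAT. In the sequences below, read 5′ to 3′ on the gene's strand, capitals mark CCAAT or its reverse complement ATTGG and, in Hmgcs1 alone, a TCACNCCAC match. The coordinates are those of GRCm38.p6, the sequence of mm10, and the sequences are from RefSeq: Hmgcs1 at chr13:119690158-119690277, plus strand, Mvd at chr8:122443423-122443542, minus strand, and Srebf2 at chr15:82147061-82147180, plus strand.
Hmgcs1: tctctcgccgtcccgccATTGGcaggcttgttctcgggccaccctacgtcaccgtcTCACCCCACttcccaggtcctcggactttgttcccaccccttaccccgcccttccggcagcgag
Mvd: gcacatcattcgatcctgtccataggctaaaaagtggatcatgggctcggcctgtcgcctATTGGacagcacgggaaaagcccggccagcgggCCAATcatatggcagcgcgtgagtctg
Srebf2: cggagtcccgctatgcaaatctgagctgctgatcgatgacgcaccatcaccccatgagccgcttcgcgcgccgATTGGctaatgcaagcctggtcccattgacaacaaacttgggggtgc

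RefSeq promoters of 300 bases, from 250 before to 50 after the start, were matched for 25 of the 31 members, with 33 promoters. Fdps, Fdft1, Sqle, Stard4, Scd1 and Scd2 were not matched. Both strands were searched, and matches to different motifs were counted without regard to shared bases. CCAAT was found in at least 1 promoter of 20 of the 25 members (21 of 33 promoters), against 37.39% of all 32817 promoters of the same length. It was found for 12 of the 14 matched members that were higher in P28 and for 8 of the other 11. TCACNCCAC was found for 1 member, Hmgcs1, against 1.243% of all promoters. CACGTG, the E-box that basic helix-loop-helix factors bind, was found for 6 members against 7.149% of all promoters. It was found for 1 of the 14 members higher in P28 and for 5 of the other 11. These matches are letters in a window, with no binding measured.

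Most members were called higher than in WT in the P28 clones, and fewer were in the P4M clones. The median change against WT was larger in the clones isolated at P28 than in those isolated at 4 months. In P28 against WT, 20 of the 31 members were higher at an FDR of 0.05 (edgeR quasi-likelihood test, adjusted over all 17358 genes), 1 was lower and 10 were not called. Among all genes tested, 19.2% were higher and 19.7% were lower in this comparison. The median log2 fold change of the members was 1.26, beside -0.02 for all genes. In P4M against WT, 11 members were higher (22.3% of all genes), 2 were lower (23.6% of all genes) and 18 were not called, with a median of 0.59 beside -0.06. In P4M against P28, a comparison within 1 submission, no member was higher (3.34% of all genes were) and 8 were lower (3.88% of all genes), with a median of -0.74 beside -0.01. Without P4M replicate 2, 5 members were lower (1.42% of all genes) and none higher (1.54%), and without P4M replicate 4, 5 were lower (1.57%) and none higher (1.49%). At an unadjusted p under 0.05 0 members were higher in P4M than in P28 (11.9% of all genes) and 17 were lower (13.9%), and DESeq2 called 0 higher (6.23% of its genes) and 11 lower (7.95%). With the mean of both cKO groups against WT, 18 were higher (23.1% of all genes) and 2, Tm7sf2 and Insig2, were lower (25.7% of all genes).

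In CPM, 20 members had every P28 clone above every WT clone, against 13.0% of all genes tested. For P4M above WT the number was 7, against 17.8%, and for P4M below P28 it was 13, against 9.96%. P28 and P4M are compared with the same WT clones, so those comparisons are not independent of each other. Leaving out P28 replicate 2 and WT replicate 1 together, a choice made after their values were seen, gave 20 members higher and 1 lower in P28 against WT (18.6% and 19.7% of all genes), 13 and 4 in P4M against WT (23.7% and 24.5%), and 1 and 9 in P4M against P28 (5.04% and 5.27%).

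**Figure D1:**
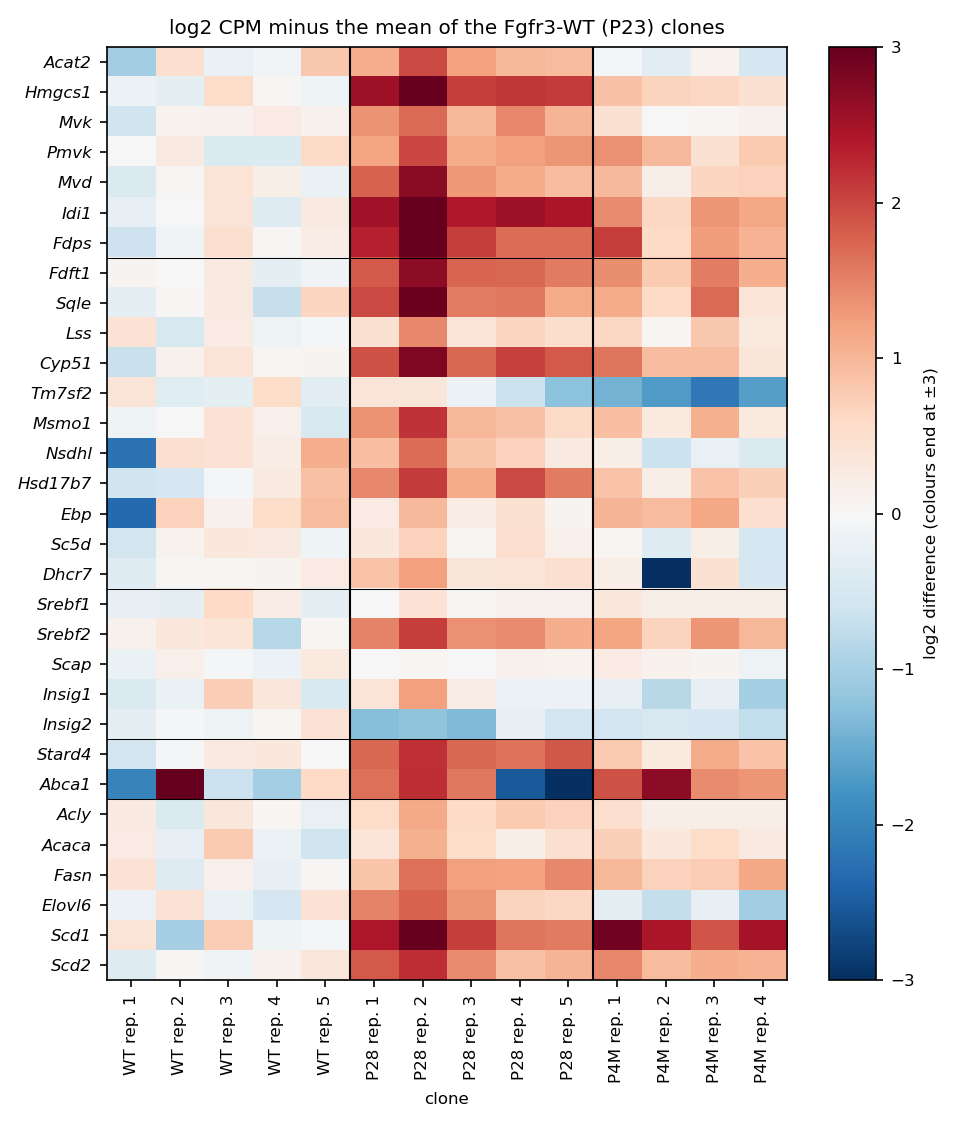
The log2 CPM of the 31 members (rows, grouped by role) in the 14 clones (columns), minus the mean log2 CPM of the 5 WT clones, is shown in colour, red for higher and blue for lower; 7 values lie beyond the colour range of 3. P28 replicate 2 is the highest P28 clone for 28 members, and the P4M columns are paler than the P28 columns for most sterol genes.

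**Figure D2:**
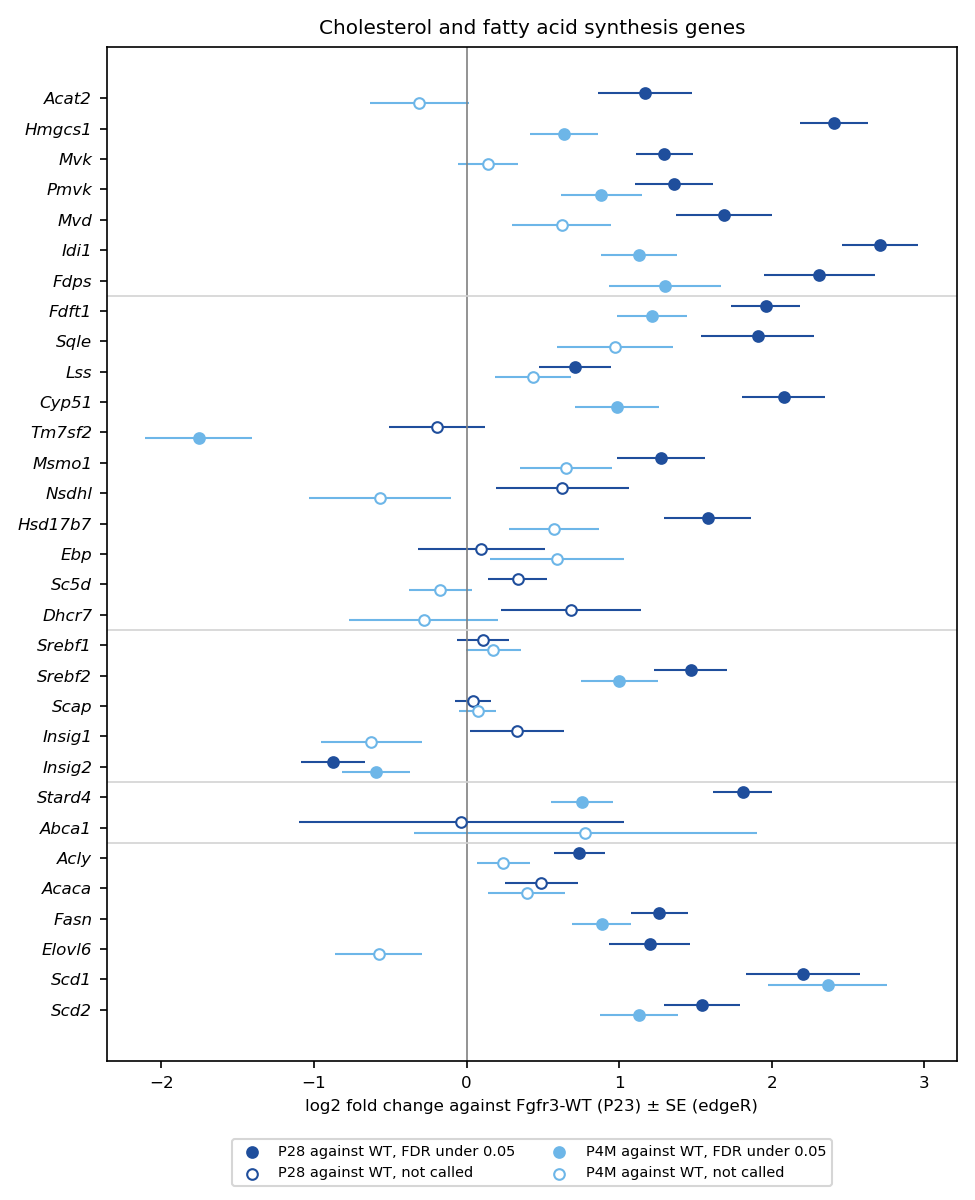
Points give the log2 fold change of each member against the WT clones from edgeR, with bars of 1 SE, in dark blue for P28 and light blue for P4M; filled points passed an FDR of 0.05. In P28, 20 members are filled on the right of 0 and 1 (Insig2) on the left.

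The mevalonate part rose as a whole in P28: 7 of 7 genes were called higher, with log2 fold changes from 1.17 (Acat2) to 2.71 (Idi1), and every P28 clone lay above every WT clone for each. In P4M, 4 of 7 (Hmgcs1, Pmvk, Idi1 and Fdps) were higher than in WT, and 4 of 7 (Acat2, Hmgcs1, Mvk and Idi1) were lower than in P28. Among all genes tested, 19.2% were higher in P28 and 22.3% in P4M than in WT, and 3.88% were lower in P4M than in P28. Every P28 clone lay above every WT clone for 13.0% of all genes.

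Hmgcs1 makes HMG-CoA, an early intermediate of the pathway. It was at 32.5, 30.8, 53.8, 37.9 and 33.6 CPM in the WT clones, 215, 309, 156, 163 and 157 CPM in the P28 clones and 68.1, 59.1, 57.2 and 50.3 CPM in the P4M clones. The P28 clones were far above every other clone, while the P4M clones began where the WT range ended and overlapped it with 1 clone. The log2 fold change was 2.41 (edgeR adjusted p = 1.33e-05, SE 0.22) in P28 against WT, 0.64 (edgeR adjusted p = 0.0318, SE 0.22) in P4M against WT and -1.77 (edgeR adjusted p = 0.00316, SE 0.24) in P4M against P28. With clones omitted 1 at a time, 7 of 14 fits did not call Hmgcs1 in P4M (adjusted p of 0.0509 to 0.0824; WT replicate 1, 2, 4 or 5, or P4M replicate 1, 2 or 3).

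Idi1, which interconverts the isoprene units, had the largest fold change of the members in P28. It was at 13.03, 15.2, 19.98, 11.8 and 18.5 CPM in the WT clones, 87.96, 170.02, 81.4, 90.1 and 83.7 CPM in the P28 clones and 41.1, 23.5, 38.8 and 34.2 CPM in the P4M clones. The 3 groups did not overlap. It was higher than in WT by a log2 fold change of 2.71 (edgeR adjusted p = 1.33e-05, SE 0.25) in P28 and 1.13 (edgeR adjusted p = 0.00271, SE 0.25) in P4M, and P4M differed from P28 by -1.58 (edgeR adjusted p = 0.00682, SE 0.26).

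Fdps makes farnesyl diphosphate, the branch point to sterols and to prenylated proteins. Its values were 20.1, 28.7, 43.6, 31.95 and 36.1 CPM in the WT clones, 157, 311, 129.9, 99.9 and 99.4 CPM in the P28 clones and 131, 47.2, 74.3 and 64.1 CPM in the P4M clones. All cKO clones exceeded all WT clones, and P4M replicate 1 reached the P28 range. Fold changes on the log2 scale were 2.31 (edgeR adjusted p = 0.000442, SE 0.37) in P28 and 1.30 (edgeR adjusted p = 0.0117, SE 0.37) in P4M, and without P4M replicate 1 the latter was 0.95 (adjusted p = 0.0506). Fdps shares 1124 of its 4208 exon bases with Gm43738 on the same strand in GENCODE M21, so reads there could be discarded as ambiguous.

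Acat2, the cytosolic thiolase that starts the pathway, was 14.2, 42.1, 25.8, 27.6 and 51.96 CPM in WT, 62.8, 117, 67.9, 58.8 and 57.3 CPM in P28 and 28.8, 23.5, 31.4 and 20.7 CPM in P4M clones. The P4M clones lay within the WT range, and the fold changes were 1.17 (edgeR adjusted p = 0.00962, SE 0.31) in P28 against WT and -1.48 (edgeR adjusted p = 0.0222, SE 0.34) in P4M against P28. The latter was lost in 4 of 14 fits without 1 clone (P28 replicate 3 or P4M replicate 1, 2 or 4), with adjusted p from 0.0503 to 0.0672. Mvk, mevalonate kinase, had 19.2 ± 3.91 CPM in WT (SD, n = 5), 47.2 ± 9.91 CPM in P28 (SD, n = 5) and 21.2 ± 3.17 CPM in P4M (SD, n = 4). Its log2 fold change was 1.30 (edgeR adjusted p = 0.000238, SE 0.19) in P28 against WT, 0.14 (edgeR adjusted p = 0.581, SE 0.19) in P4M against WT and -1.16 (edgeR adjusted p = 0.00831, SE 0.20) in P4M against P28. The kinase and decarboxylase that follow, Pmvk and Mvd, were higher in P28 by 1.36 (edgeR adjusted p = 0.00128, SE 0.26) and 1.69 (edgeR adjusted p = 0.00124, SE 0.31). Mvd in P4M against P28 was -1.06 (edgeR adjusted p = 0.0665, SE 0.33), and DESeq2 (adjusted p = 0.0249) and limma on log2(TPM + 1) (adjusted p = 0.0312) called it. Pmvk was also higher in P4M, by 0.88 (edgeR adjusted p = 0.0153, SE 0.27), a call lost without P4M replicate 1 (0.71, adjusted p = 0.0608).

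**Figure D3:**
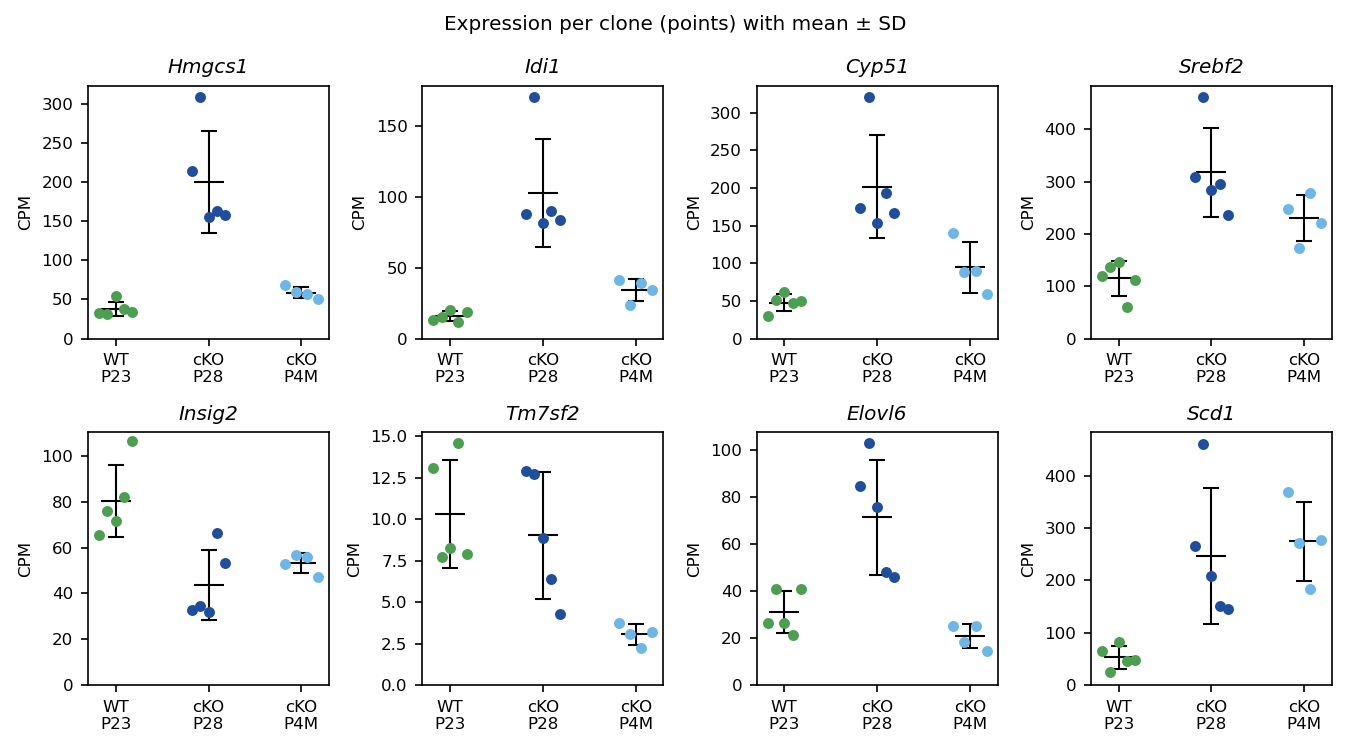
Each panel shows CPM of 1 member in the 14 clones (points, offset only for display, axis from 0), with the mean and SD of each group as a black bar. Hmgcs1, Idi1 and Cyp51 fall from P28 to P4M, Elovl6 falls to 14.7 to 25.3 CPM in P4M, Tm7sf2 is lowest in P4M, Insig2 is lower in both cKO groups, and Scd1 is high in both.

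In the squalene and sterol part, 6 of 11 genes were higher in P28 (Fdft1, Sqle, Lss, Cyp51, Msmo1 and Hsd17b7) and 5 were not called. The share of all genes higher in P28 was 19.2%. In P4M against WT, 2 were higher (Fdft1 and Cyp51) and 1 was lower (Tm7sf2). Neither count exceeded its share of all genes (22.3% and 23.6%). In P4M against P28, 2 were lower (Cyp51 and Tm7sf2), beside 3.88% of all genes. Cyp51, Fdft1 and Sqle had the largest fold changes in P28, whereas Nsdhl, Ebp, Sc5d and Dhcr7 were not called in any comparison by edgeR on all 14 clones.

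Fdft1, squalene synthase, was at 34.1, 32.3, 38.6, 26.5 and 29.9 CPM in the WT clones, 114, 207, 108, 105 and 93.6 CPM in the P28 clones and 84.00, 54.9, 92.6 and 68.5 CPM in the P4M clones. Every cKO clone was above every WT clone, and every P4M clone was below every P28 clone. On the log2 scale Fdft1 differed from WT by 1.96 (edgeR adjusted p = 5.61e-05, SE 0.22) in P28 and 1.22 (edgeR adjusted p = 0.001, SE 0.23) in P4M, and -0.74 (edgeR adjusted p = 0.0665, SE 0.23) between P4M and P28, which was not called here but was with DESeq2 (adjusted p = 0.0362) and with limma on log2(TPM + 1) (adjusted p = 0.0267). Fdft1 shares 774 of 4227 exon bases with Ctsb on the opposite strand, and whether the counting used strand is not given in the sources used here.

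Sqle, squalene epoxidase, showed 42.3, 52.1, 61.2, 31.5 and 78.6 CPM in WT, 200.3, 387, 147, 152 and 109.7 CPM in P28 and 109.9, 76.8, 164 and 66.2 CPM in P4M clones. P28 replicate 2 stood above the other P28 clones, and 2 P4M clones lay within the WT range. Sqle was higher in P28 by 1.91 (edgeR adjusted p = 0.00163, SE 0.37). In P4M against WT it was at 0.97 (edgeR adjusted p = 0.0502, SE 0.38), just short of the threshold, and it was called in 5 of 14 fits without 1 clone (WT replicate 5, P28 replicate 2 or 5, P4M replicate 2 or 4), with adjusted p from 0.0218 to 0.0496. DESeq2, RLE scaling, the filter of at least 10 counts, only the groups compared, limma on log2(TPM + 1) and the omission of P28 replicate 2 with WT replicate 1 also called it (adjusted p from 0.0342 to 0.0466). Lss, which closes the sterol rings, was higher in P28 by 0.71 (edgeR adjusted p = 0.0278, SE 0.23), a call lost without P28 replicate 2 (0.46, adjusted p = 0.0817) and without WT replicate 2, 4 or 5 (adjusted p up to 0.0662).

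Cyp51 removes a methyl group from lanosterol. It was at 29.4, 50.7, 62.1, 47.4 and 49.4 CPM in the WT clones, 173, 321, 154, 194 and 167 CPM in the P28 clones and 140.4, 88.7, 89.4 and 59.7 CPM in the P4M clones. The P28 clones were all above the P4M clones, and the lowest P4M clone lay inside the WT range. Its log2 fold change was 2.08 (edgeR adjusted p = 0.000135, SE 0.27) in P28, 0.98 (edgeR adjusted p = 0.0109, SE 0.28) in P4M, and -1.09 (edgeR adjusted p = 0.0352, SE 0.28) in P4M against P28. That last call was lost in 7 of 14 fits without 1 clone, with adjusted p from 0.0579 to 0.0960 (any of P28 replicates 1 to 4 or P4M replicates 2 to 4), among them the fit without P28 replicate 2 (-0.85, adjusted p = 0.0727). It was also lost without a count filter (adjusted p = 0.0514).

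Tm7sf2, a sterol reductase of the same part, went the other way. Its values were 13.1, 7.73, 8.25, 14.6 and 7.88 CPM in the WT clones, 12.9, 12.7, 8.84, 6.39 and 4.25 CPM in the P28 clones and 3.74, 3.05, 2.25 and 3.18 CPM in the P4M clones. All P4M clones were below all clones of the other groups, whereas the P28 clones reached from the WT range to below it, with replicates 1 and 2 high and replicates 4 and 5 low. Its log2 change against WT was -0.19 (edgeR adjusted p = 0.657, SE 0.31) in P28 and -1.75 (edgeR adjusted p = 0.00144, SE 0.35) in P4M, and it was -1.56 (edgeR adjusted p = 0.0199, SE 0.35) in P4M against P28. Leaving out P4M replicate 2, 3 or 4 moved the adjusted p of the last to 0.0529 to 0.0553. Tm7sf2 shares 532 of 4403 exon bases with Vps51 on the same strand.

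Msmo1 and Hsd17b7, enzymes of demethylation at the sterol ring, were higher in P28 by 1.28 (edgeR adjusted p = 0.004, SE 0.29) and 1.58 (edgeR adjusted p = 0.000982, SE 0.29). In P4M they were at 0.65 (edgeR adjusted p = 0.0926, SE 0.30) and 0.57 (edgeR adjusted p = 0.127, SE 0.29) and were not called. Hsd17b7 in P4M against P28 was -1.01 (edgeR adjusted p = 0.0579, SE 0.30), with every P4M clone (18.1 to 28.8 CPM) below every P28 clone (34.3 to 67.5 CPM). This difference was called with DESeq2 (adjusted p = 0.0212), at least 10 counts in every clone (0.0438), no scaling (0.0466), limma on log2(TPM + 1) (0.0188), only the groups compared (0.0190), and without WT replicate 1 or 5.

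Nsdhl and Ebp, which act on sterol intermediates, are the 2 members on the X chromosome. Nsdhl was at 4.17, 27.2, 26.1, 22.7 and 41.6 CPM in the WT clones, 36.4, 61.9, 34.4, 31.6 and 23.5 CPM in the P28 clones and 22.1, 12.5, 16.7 and 14.4 CPM in the P4M clones, and Ebp at 5.51, 45.3, 30.4, 40.9 and 54.1 CPM in the WT clones, 33.02, 54.8, 32.4, 38.4 and 29.7 CPM in the P28 clones and 56.8, 53.8, 62.5 and 39.3 CPM in the P4M clones. WT replicate 1 was far below the other WT clones for both. Across 324 genes of the X chromosome with log2 CPM averaging 3 or more, that clone had a median shift of -1.448 on the log2 scale against the mean of the other WT clones, less the median shift of the autosomal genes. For each of the other WT clones, measured against the mean of the remaining WT clones, it was 0.036 to 0.571. For the cKO clones, measured against the mean of all WT clones, it was -0.169 to -0.551. Both of these means include WT replicate 1. The fold changes in P28 against WT, 0.63 (edgeR adjusted p = 0.273, SE 0.44) for Nsdhl and 0.10 (edgeR adjusted p = 0.875, SE 0.42) for Ebp, were not called. Without WT replicate 1, Nsdhl was lower in P4M than in WT (-0.85, adjusted p = 0.0277) and lower than in P28 (-1.17, adjusted p = 0.0203), and Ebp in P28 against WT turned to -0.21.

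Sc5d and Dhcr7 carry out the late steps to cholesterol. For Sc5d, 95% intervals of the log2 fold change were -0.05 to 0.72 in P28 and -0.58 to 0.23 in P4M against WT. On log2(TPM + 1) limma gave 0.85 in P28 (adjusted p = 0.000999), outside that interval, and called it. Dhcr7 was 10.8, 14.4, 14.5, 14.97 and 16.8 CPM in WT, 25.5, 32.99, 18.1, 18.6 and 19.6 CPM in P28 and 16.1, 1.43, 19.6 and 9.92 CPM in P4M clones. Its P28 clones all exceeded its WT clones, yet the gene was not called (0.68 (edgeR adjusted p = 0.258, SE 0.46)). P4M replicate 2 stood apart at 1.43 CPM, and without it, or with only the P28 and WT clones in the fit, the P28 call was made (adjusted p = 0.0299 and 0.0282), the groups otherwise sharing 1 estimate of the spread.

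Among the 5 genes of SREBP control, Srebf2 was higher in both cKO groups, Insig2 was lower in both, with a P4M call that several alternatives lost, and Srebf1, Scap and Insig1 were not called in any comparison by edgeR on all 14 clones. These counts of 1 in 5 are near the shares of all genes, 19.2% higher and 19.7% lower in P28, and 22.3% and 23.6% in P4M. Srebf2 encodes SREBP2, the factor known mainly for the cholesterol genes. It was at 119.8, 136, 145, 60.6 and 112 CPM in the WT clones, 309.5, 462, 284, 295 and 236 CPM in the P28 clones and 248, 174, 277 and 220.1 CPM in the P4M clones. Every cKO clone exceeded every WT clone. The log2 fold change was 1.47 (edgeR adjusted p = 0.000539, SE 0.24) in P28 and 1.002 (edgeR adjusted p = 0.00554, SE 0.25) in P4M, and -0.47 (edgeR adjusted p = 0.262, SE 0.25) between P4M and P28, which was not called.

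Srebf1, which encodes the SREBP1 isoforms known for fatty acid genes, differed from WT by 0.11 (edgeR adjusted p = 0.648, SE 0.17) in P28 and 0.17 (edgeR adjusted p = 0.451, SE 0.18) in P4M, with 95% intervals of -0.23 to 0.44 and -0.18 to 0.53. Scap, the escort protein, varied little, at 78.5 to 111 CPM in WT, 90.8 to 98.1 CPM in P28 and 81.5 to 108 CPM in P4M clones, and its interval in P28 against WT was -0.19 to 0.27. Those intervals exclude a log2 change of 1 in either direction. On log2(TPM + 1), where the median of all genes shifted to 0.20, limma called Scap in P28 at 0.39 (adjusted p = 0.0279).

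Insig1 and Insig2 encode the retention proteins of the endoplasmic reticulum; the former is itself an SREBP target. Insig1 was at 84.8, 98.8, 189.8, 144 and 83.5 CPM in the WT clones, 152, 268, 134, 101 and 101 CPM in the P28 clones and 96.4, 63.8, 95.3 and 56.7 CPM in the P4M clones. P28 replicate 2 was high, all P4M clones were below all P28 clones, and the difference of -0.95 (edgeR adjusted p = 0.0952, SE 0.34) was not called, except with limma on log2(TPM + 1) (adjusted p = 0.0367). Insig2 was at 65.7, 75.9, 71.7, 82.2 and 106 CPM in the WT clones, 32.9, 34.6, 31.8, 66.4 and 53.2 CPM in the P28 clones and 52.9, 56.9, 55.97 and 47.3 CPM in the P4M clones. P28 replicates 1 to 3 were lowest, and replicate 4 lay within the WT range. Its log2 fold change was -0.88 (edgeR adjusted p = 0.00539, SE 0.21) in P28 and -0.59 (edgeR adjusted p = 0.0435, SE 0.22) in P4M, and 8 of the 14 fits that omitted a clone did not call the latter (adjusted p of 0.0509 to 0.112; WT replicate 2, 4 or 5, P28 replicate 5, or any P4M clone). DESeq2 (adjusted p = 0.0606), RLE scaling (0.0531) and no count filter (0.108) did not call it either.

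Stard4, a carrier that moves sterol between membranes, followed the mevalonate genes. It was at 11.5, 16.6, 20.5, 21.3 and 17.1 CPM in the WT clones, 55.8, 77.98, 56.4, 52.2 and 62.2 CPM in the P28 clones and 29.3, 20.8, 36.7 and 30.7 CPM in the P4M clones. The P28 clones stood clear of both other groups. Its log2 fold change came to 1.81 (edgeR adjusted p = 4.29e-05, SE 0.20) in P28, 0.76 (edgeR adjusted p = 0.0079, SE 0.20) in P4M and -1.05 (edgeR adjusted p = 0.0123, SE 0.21) in P4M against P28. Abca1, which exports cholesterol and is a target of the liver X receptors, was at 0.554, 18.4, 1.42, 1.08 and 3.36 CPM in the WT clones, 6.95, 10.2, 6.58, 0.383 and 0.102 CPM in the P28 clones and 8.33, 14.3, 5.87 and 5.56 CPM in the P4M clones. Within the WT and the P28 clones it varied, relative to its mean, by more than any other member, and the 95% interval of its log2 fold change was -2.12 to 2.06 in P28 and -1.42 to 2.98 in P4M, so no difference of the size seen for Stard4 could be detected or excluded.

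In the fatty acid part, 5 of 6 genes were higher in P28 (Acly, Fasn, Elovl6, Scd1 and Scd2), and 3 of them (Fasn, Scd1 and Scd2) were also higher in P4M. Only Elovl6 was called between P4M and P28, and it was lower in P4M. The shares over all genes were 19.2% higher in P28, 22.3% higher in P4M and 3.88% lower in P4M than in P28. Scd1 and Scd2 encode stearoyl-CoA desaturases, which make monounsaturated fatty acids; they are close paralogs, so that reads could be shared or discarded between them.

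Scd1 was at 65.7, 24.8, 82.4, 45.2 and 48.4 CPM in the WT clones, 265, 461, 209, 151 and 145 CPM in the P28 clones and 369, 271, 183 and 277 CPM in the P4M clones. Every cKO clone was above every WT clone, and the P28 and P4M clones overlapped. In log2 units the change was 2.21 (edgeR adjusted p = 0.000685, SE 0.37) in P28 and 2.37 (edgeR adjusted p = 0.00042, SE 0.39) in P4M, with 0.16 (edgeR adjusted p = 0.835, SE 0.38) between them. Scd2, by mean TPM the most abundant member in each group (WT 97.1 ± 18.02 TPM, SD, n = 5; P28 342 ± 124 TPM, SD, n = 5), had 286, 384, 349, 407 and 476 CPM in WT, 1334, 1754, 1006, 693 and 759 CPM in P28 and 1024, 728, 799.7 and 778 CPM in P4M clones. It also showed no overlap between cKO and WT clones. Its log2 fold change was 1.54 (edgeR adjusted p = 0.00045, SE 0.25) in P28 and 1.13 (edgeR adjusted p = 0.00316, SE 0.26) in P4M.

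Fasn, fatty acid synthase, was at 213, 119.99, 174, 133 and 159.8 CPM in the WT clones, 279, 491, 367, 359.6 and 423 CPM in the P28 clones and 312, 254, 264 and 349 CPM in the P4M clones. All cKO clones exceeded all WT clones, with log2 fold changes of 1.26 (edgeR adjusted p = 0.000285, SE 0.19) in P28 and 0.88 (edgeR adjusted p = 0.00268, SE 0.19) in P4M. Acly, which supplies cytosolic acetyl-CoA, was higher in P28 by 0.74 (edgeR adjusted p = 0.00371, SE 0.17) and stood at 0.24 (edgeR adjusted p = 0.278, SE 0.18) in P4M. Acaca, acetyl-CoA carboxylase 1, was not called (0.49 (edgeR adjusted p = 0.122, SE 0.24) in P28). Without WT replicate 3, its highest WT clone at 129.97 CPM, it was called in P28 (0.73, adjusted p = 0.0145) and in P4M (0.64, adjusted p = 0.0281), and limma on log2(TPM + 1) called it in P28 (0.81, adjusted p = 0.0145).

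Elovl6, which lengthens C16 fatty acids, rose in P28 and not in P4M. It was at 26.6, 40.7, 26.3, 21.1 and 40.8 CPM in the WT clones, 84.7, 103, 75.7, 47.9 and 45.9 CPM in the P28 clones and 25.03, 18.5, 25.3 and 14.7 CPM in the P4M clones. The P28 clones were all above the other groups, with replicates 1 to 3 above replicates 4 and 5, while the P4M clones overlapped the lower WT clones. The log2 fold change was 1.20 (edgeR adjusted p = 0.0035, SE 0.27) in P28, -0.58 (edgeR adjusted p = 0.112, SE 0.28) in P4M and -1.78 (edgeR adjusted p = 0.00697, SE 0.29) in P4M against P28. Of the 8 members lower in P4M than in P28 it had the largest change, closely followed by Hmgcs1.

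Summed per length, the 18 genes of the mevalonate, squalene and sterol parts came to 283.1, 372.8, 433.9, 324.5 and 442.1 TPM in WT, 1217, 2051, 1040.2, 1062 and 936.7 TPM in P28 and 758.6, 459.6, 678.1 and 496.0 TPM in P4M clones. The means were 371.3 ± 68.7 TPM (SD, n = 5), 1261 ± 452.6 TPM (SD, n = 5) and 598.1 ± 143.5 TPM (SD, n = 4). No 2 groups overlapped. The 6 fatty acid genes came to 239.3 ± 34.6 TPM (SD, n = 5) in WT, 708.9 ± 195.1 TPM (SD, n = 5) in P28 and 490.1 ± 73.7 TPM (SD, n = 4) in P4M clones. Their P28 and P4M ranges overlapped, at 540.3 to 1031 TPM and 425.4 to 590.0 TPM.

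**Figure D4:**
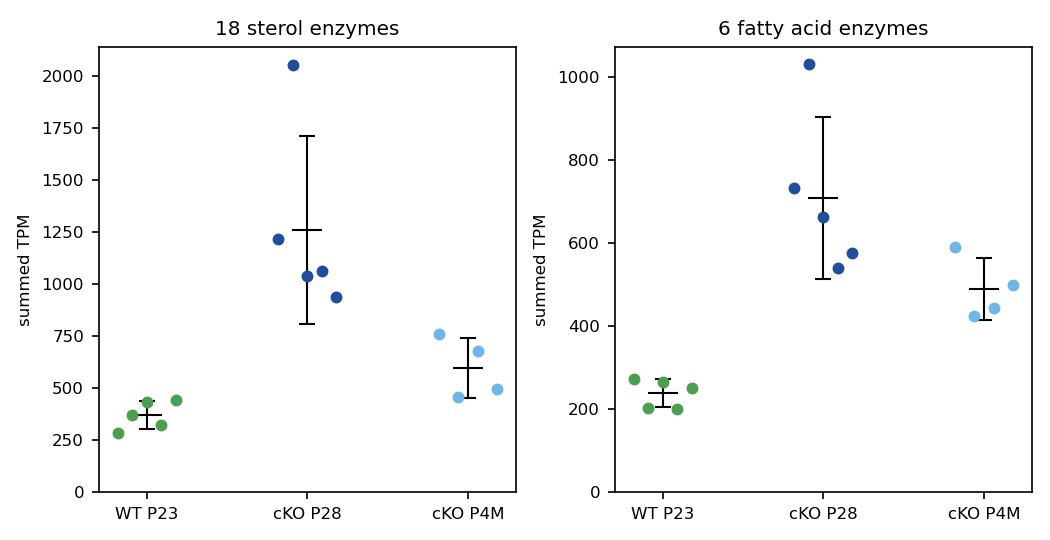
Summed TPM per clone (points, axis from 0) of the 18 sterol enzymes on the left and the 6 fatty acid enzymes on the right, with the mean and SD of each group. WT clones lie at 283.1 to 442.1 TPM for the sterol enzymes, below all P4M clones, which lie below all P28 clones.

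The members did not vary independently of each other within a group. P28 replicate 2 was the highest P28 clone for 28 of the 31 members (90.3%), beside 22.9% of all genes tested. Its ratio to the median of the other P28 clones had a median of 1.75 over the members, from 0.80 (Insig2) to 2.93, beside 0.9998 over all genes. The 3 members for which it was not highest were Tm7sf2, Scap and Insig2. This clone had 453.9 TPM of summed proliferation markers, within the P28 range. In P4M, replicate 1 was above its group mean for 30 members and was the highest for 16, and replicate 2 was the lowest for 16. In WT, replicate 1 was the lowest for 15. For these P4M and WT clones the shares over all genes are not given. A trait of the members and one of the whole library therefore cannot be told apart there. Values of the members in 1 clone share that clone's library, so they are not separate evidence.

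Related genes outside the list were tested in the same fit, in which 19.2% of all genes were higher and 19.7% lower in P28, and 22.3% and 23.6% in P4M. Of 20 further sterol and fatty acid enzymes, 9 were higher in P28 and none lower, and in P4M 9 were higher and 1 was lower. Fads2, which desaturates polyunsaturated fatty acids, had the largest rise over both cKO groups with no overlap (1.81 (edgeR adjusted p = 0.0106, SE 0.51)), from 2.28 to 43.1 CPM in WT to 77.9 to 207 CPM in P28 and 59.9 to 97.9 CPM in P4M clones. Of 10 genes of the isoprenoid branches, 2 were higher and 1 was lower in P28, and 3 and 3 in P4M, counts near those shares. Pdss1, which makes the side chain of coenzyme Q, rose over both cKO groups by 1.67 (edgeR adjusted p = 0.000127, SE 0.24), from 1.45 to 2.73 CPM to 3.79 to 7.12 CPM in P28 and 5.94 to 10.6 CPM in P4M clones.

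Of 10 genes of SREBP processing and degradation, 1 was higher and 4 were lower in each cKO group. Sec24d, a coat protein of the vesicles that leave the endoplasmic reticulum, was higher (0.97 (edgeR adjusted p = 0.000821, SE 0.18)) and Lpin1, a phosphatidate phosphatase that also restrains nuclear SREBP, was lower (-1.80 (edgeR adjusted p = 0.000506, SE 0.32)). Lpin1 was 37.8 to 103 CPM in WT, 11.2 to 37.1 CPM in P28 and 9.90 to 16.5 CPM in P4M clones. Of 7 genes around the liver X receptors, 6 were tested, and 1 was higher and 4 were lower in P28, and none was higher and 2 were lower in P4M. Smpdl3a, a phosphodiesterase of the acid sphingomyelinase family, fell from 31.9 to 283 CPM to 12.4 to 24.2 CPM in P28 and 8.10 to 20.5 CPM in P4M clones (-2.99 (edgeR adjusted p = 6.94e-05, SE 0.39)). None of the genes of these 4 lists was called between P4M and P28 except Ube2g2, a ubiquitin-conjugating enzyme, which was higher in P4M.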

How the data were processed

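RNA was sequenced by the authors from SMART-Seq v4 libraries as single-end reads of 50 cycles, aligned to mm10 with TopHat and Bowtie2, and counted with HTSeq, keeping reads that mapped without ambiguity; versions are not given in the sources used here. The deposited counts are whole numbers per gene without normalization. The deposited TPM values were normalized by the authors for length and depth, with a program not given in the sources used here, and were used to compare levels between genes, for summed and marker levels per clone, and in 1 alternative. Tables of expected counts, FPKM and normalized counts were not used.

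The 31 members and all gene lists were chosen with earlier results of these data known. Tests used edgeR 4.0.16 (R 4.3.3): filterByExpr with the 3 groups, TMM scaling, a robust quasi-likelihood fit of 3 group means to all 14 clones, Benjamini-Hochberg adjustment over 17358 genes, and calls at an FDR of 0.05. The SE is the absolute log2 fold change divided by the square root of F, and 95% intervals are 1.96 SE on either side. Depth was 25688946 to 52857424 counts per clone. No batch term could be fitted. Groups came from the labels, and replicate numbers are running numbers that pair no clones. The fit was tested on simulated data. All members are named; of each further list, the called gene that rose most and the one that fell most over both cKO groups, if cKO and WT clones did not overlap. Ube2g2, the cell type markers given with levels, and the clones singled out were named after their values were seen. Promoters are from RefSeq and exons from GENCODE M21. Alternatives were DESeq2 1.42.0, RLE scaling, no scaling, no filter, at least 10 counts in every clone, only the groups compared, limma 3.58.1 on log2(TPM + 1), a minimum change of 1 on the log2 scale, each clone left out in turn and, chosen after seeing the data, P28 replicate 2 and WT replicate 1 left out together.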

Additional observations from a re-analysis of the deposited data

Results flagged for a closer look

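In 12 of 93 sets of clones (31 members in 3 groups), the clone at 1 end stood apart from the rest: its gap to the nearest clone, as a share of the whole range of the group, passed Dixon's 95% critical value. Chance flags about 1 in 20 groups, and the members are not independent of each other. P28 replicate 2 was that clone for 8 members. The gap took 0.822 of the range for Acat2 (117.0 CPM, nearest clone 67.9 CPM), 0.811 for Pmvk (29.7 and 18.5 CPM), 0.902 for Idi1 (170.0 and 90.1 CPM), 0.726 for Fdps (310.9 and 157.3 CPM), 0.818 for Fdft1 (207.3 and 114.2 CPM), 0.820 for Lss (138.1 and 78.8 CPM), 0.763 for Cyp51 (321.1 and 193.6 CPM) and 0.729 for Srebf1 (130.9 and 107.4 CPM). P4M replicate 1 stood above its group for Srebf1 (0.845 of the range, 122.7 and 112.1 CPM) and Acly (0.951 of the range, 219.7 and 176.9 CPM). WT replicate 1 stood below its group for Mvk (0.793 of the range, 12.3 and 20.2 CPM), and WT replicate 2 above it for Abca1 (0.843 of the range, 18.4 and 3.36 CPM).

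For 8 members the P4M clones differed from the P28 clones (edgeR, FDR under 0.05). Both groups were set against the same WT clones, so the difference of their fold changes is only P4M against P28. Without WT clones of P4M age, it does not show that the effect of p53 loss changes with age. Time since the tamoxifen pulse differs together with age at isolation, and passage may differ too. The difference of the log2 fold changes was -1.48 for Acat2, -1.77 for Hmgcs1, -1.16 for Mvk, -1.58 for Idi1, -1.09 for Cyp51, -1.56 for Tm7sf2, -1.05 for Stard4 and -1.78 for Elovl6. All P4M clones were below all P28 clones for each of these 8, beside 9.96% of all genes tested. The 8 were chosen by a test on the same clones, so this is not separate evidence.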

How the results depend on the processing

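The number of members called in P28 against WT was 21 (18 to 24 over all alternatives) and in all cKO against WT 20 (14 to 24), and stayed within 1.5 times these values throughout. In P4M against WT, 13 were called, 7 with a minimum change of 1 on the log2 scale, and 9 to 16 without 1 clone. In P4M against P28, 8 were called, 13 with limma on log2(TPM + 1), and 5 to 10 without 1 clone, with 5 without P4M replicate 2 or P4M replicate 4. For P28 against WT the range without 1 clone was 20 to 22 and for all cKO against WT 19 to 21. Over all genes, 1254 were called in P4M against P28, 1570 with limma on log2(TPM + 1), 2814 with DESeq2, 3051 with only those groups in the fit and 480 to 2132 without 1 clone. In P4M against WT, 7969 of all genes were called, and 5149 with a minimum change of 1 on the log2 scale. On log2(TPM + 1) the median of all genes shifted to 0.20 in P28 against WT, 0.13 in all cKO against WT and -0.14 in P4M against P28.

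Signs changed only for members that were not called. In P28 against WT, Abca1 turned to 0.0987 without scaling, 0.127 on log2(TPM + 1) and 0.0199 without a filter, and ranged from -0.56 to 1.60 without 1 clone, as did Ebp from -0.21 to 0.30 and Scap from -0.0336 to 0.12. With P28 replicate 2 and WT replicate 1 left out, Ebp was -0.38, Insig1 -0.11, Scap -0.0277 and Srebf1 -0.0533. In P4M against P28, Scap turned to -0.0031 with at least 10 counts in every clone, -0.0525 without scaling and -0.16 on log2(TPM + 1), Srebf1 to -0.0140 without scaling and -0.17 on log2(TPM + 1), and Acaca to 0.0760 with those 2 clones left out. Without 1 clone, Scap ranged from -0.0048 to 0.102 and Acaca from -0.16 to 0.0776. In P4M against WT, Sc5d turned to 0.0994 on log2(TPM + 1), and Dhcr7 ranged from -0.63 to 0.0971. In all cKO against WT, Insig1 turned to 0.0357 on log2(TPM + 1), and with the 2 clones left out Abca1 was -0.19, Ebp -0.0335, Nsdhl -0.39, Sc5d -0.0974 and Scap -0.0067. Without 1 clone, Nsdhl ranged from -0.26 to 0.31, Sc5d from -0.0517 to 0.16, Scap from -0.0097 to 0.14 and Insig1 from -0.31 to 0.0753. The cause was not tested.

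Genotype and library submission cannot be told apart, nor can genotype and time in culture between WT and P28, and each group holds 4 or 5 clones. Age at isolation differs between WT and each cKO group, and no WT clones of P4M age were included. Genotype and age therefore cannot be told apart against WT either. The part of depth in the precision was not tested.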
